A study of Mus musculus with 38 samples.

Results

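The mitochondrial carrier family was followed as the 47 protein-coding genes whose symbol starts with Slc25a, of 22401 genes with a coding sequence (CDS) in the data. They were chosen by name. Their CDSs ran from 108 to 2034 nt with a median of 957 nt, against a median of 1101 nt over all genes, and 35 of the 47 had a CDS of 800 to 1200 nt. The family was therefore set beside the 5360 genes of that length, the members included.

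Most Slc25a proteins are carriers of the inner mitochondrial membrane that move nucleotides, phosphate, amino acids, carboxylates, cofactors and ions between the cytosol and the mitochondrial matrix. They are encoded in the nucleus and made on cytosolic ribosomes, and most reach the inner membrane through the outer membrane translocase, the small Tim chaperones and the carrier translocase. In neurons they feed oxidative phosphorylation, which supplies synapses with ATP, and they supply glutamate and aspartate metabolism.

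The libraries hold ribosome footprints from primary cultures of mouse cortical neurons. All cultures carried a doxycycline-inducible TurboID biotin ligase from a lentivirus, received cycloheximide for 2 min, which stops elongating ribosomes, and were given biotin for 30 min according to the labels. The ligase was either TurboID-PSD95, which is directed to dendrites by sequences of the postsynaptic scaffold PSD95, or Pan-TurboID, which lacks a localization signal. For each culture, total monosomes (input) and monosomes captured on streptavidin (pulldown) were sequenced. In the KCl experiment, depolarized neurons were silenced for 2 h with tetrodotoxin and DL-AP5, received 55 mM KCl for 1 h and were left for 30 min afterwards, while the labels give resting neurons cycloheximide as their one treatment, with 3 cultures for each state and ligase (24 libraries). A second experiment gave, after the same silencing, 100 µM DHPG, which activates the metabotropic glutamate receptors mGluR1 and mGluR5, for 10 min to neurons with TurboID-PSD95, which by the labels were then left for 30 min (3 cultures, 6 libraries). A further one used neurons with TurboID-PSD95 and 20 nM siRNA against the initiation factor eIF4G2 for 72 h, resting or silenced and depolarized with KCl in the same way (2 cultures each, 8 libraries). No control siRNA was analysed here, so knockdown and DHPG could be set only against the KCl experiment, and treatment and experiment cannot be told apart in those comparisons. These are bulk cultures, in which fewer cells of a type and less translation per cell cannot be told apart. Library totals were 5906281 to 35643247 counts, with 2048604 to 14646402 counts in the CDSs used.

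Levels are given as CDS counts scaled to a common library size (CPM) after TMM scaling, and comparisons as log2 fold changes with a standard error (SE) and a Benjamini-Hochberg adjusted p from edgeR's quasi-likelihood test over all genes tested, with a call at 0.05. The p-values measure only the spread between these cultures. Markers of neurons summed to between 5420 and 11036 CPM in the libraries, those of astrocytes to between 224 and 1344 CPM and those of the oligodendrocyte lineage to between 38.5 and 518 CPM, while microglia and endothelial markers stayed below 15 CPM. Eif4g2, the target of the siRNA, had 269 and 269 CPM in the resting knockdown inputs and 319 and 305 CPM in the depolarized ones, against 503, 537 and 549.7 CPM and 579, 506 and 728 CPM without knockdown, with no overlap.

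The headers of the count tables set each footprint at its 5′ end with no shift to the decoded codon, so a ribosome on the first codons of a carrier falls in the 5′ UTR, and the windows around the start codons of the 2 main ADP/ATP carriers show which bases were at stake (start codon in capitals, GRCm38, which is mm10, on the strand of the gene; the coordinates are those of the whole CDS).
Slc25a4 (chr8:46207463-46210922, minus strand): ccggctttcagcATGggggatcaggctttg
Slc25a5 (chrX:36795731-36798544, plus strand): tttgctttcaacATGacagatgccgctgtg
Slc25a3, the phosphate carrier, has a pair of alternative exons early in its CDS, and their first 30 bases are shown because the footprints separated them (the longest run that both windows share is in capitals).
Slc25a3 exon of 122 nt (chr10:91121922-91122043, minus strand): agtacagtTGTGAATttggctccatgaagt
Slc25a3 exon of 125 nt (chr10:91122207-91122331, minus strand): agcagtatagcTGTGAATatggatctggca
The coordinates here are those of the exons. Over all 38 libraries, 21501 footprint ends fell in the CDS of the 122-nt exon and 320 in that of the 125-nt exon, so the transcript with the 122-nt exon, which was the one counted here, carried nearly all of the signal. In the resting TurboID-PSD95 inputs the counts were 1972, 716 and 541 for the first and 9, 1 and 3 for the second. After KCl they were 525, 1035 and 2027 for the first and 2, 8 and 65 for the second. In the Pan-TurboID inputs they were 897, 493 and 408 against 2, 0 and 0 at rest. After KCl these were 279, 1379 and 1351 against 9, 31 and 50. The share of the 125-nt exon was thus not the same in all libraries, and its change with KCl was not tested.

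In resting inputs, which hold the footprints of the whole culture, the levels per kilobase of CDS spanned a wide range (mean ± SD over 6 inputs, both ligases). Slc25a4, the ADP/ATP carrier of heart, muscle and brain, led with 909.6 ± 65.5 CPM per kb. Slc25a3, which imports phosphate for ATP synthesis, followed at 691 ± 78.5 CPM per kb and did not overlap with it within the SDs. Slc25a5, the ubiquitous ADP/ATP carrier, came next at 230.4 ± 22.8, above Slc25a22, a mitochondrial glutamate carrier, at 173 ± 8.68 and Slc25a12, the aspartate-glutamate carrier of brain and muscle, at 126 ± 10.5 CPM per kb. Below these, Slc25a11 (oxoglutarate and malate), Slc25a1 (citrate) and Slc25a23 (ATP-Mg and phosphate, regulated by calcium) stood at 89.6 ± 8.07, 82.3 ± 7.64 and 73.4 ± 12.1 CPM per kb, and neighbours in that order lay within their SDs of each other. Slc25a46, an outer membrane member linked to mitochondrial shape, and Slc25a17, a peroxisomal cofactor carrier, had 58.7 ± 8.08 and 42.4 ± 5.51 CPM per kb.

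The summed level of the family was 2727 to 4996 CPM per library, of which Slc25a3, Slc25a4 and Slc25a5 made up 58.0% to 67.5%. At the other end, Slc25a13, the aspartate-glutamate carrier of liver, had 1.38 ± 1.00 CPM per kb, and Slc25a21, Slc25a31, Slc25a34, Slc25a35, Slc25a41, Slc25a43, Slc25a45, Slc25a47, Slc25a48 and Slc25a54 were below 1 CPM per kb on average. Slc25a2 had no count in the resting inputs. The filter on low counts left 36 of the 47 members for tests in the KCl experiment, 31 in the DHPG experiment and 33 in the knockdown experiment. For Slc25a5 and Slc25a36, 86.3% and 80.6% of the 30-base stretches of the CDS also occurred at another place in the genome, with 39.9% for Slc25a40, 20.5% for Slc25a37, 14.2% for Slc25a51 and 11.1% for Slc25a3. How reads with several matches were treated is not given in the sources used here, so the counts of these genes are uncertain here and in every comparison below. All other members were below 1%.

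Pulldown over input asks which carrier footprints were captured with the biotinylated monosomes. With TurboID-PSD95 at rest, 8 of the 36 members tested passed the test, 6 higher and 2 lower in the pulldown, where 25.0% of all genes passed, 11.5% higher and 13.5% lower. Among genes with a CDS of 800 to 1200 nt, 6.24% were higher and 13.6% lower. The higher members were Slc25a44, Slc25a22, Slc25a1, Slc25a3, Slc25a39 and Slc25a17, and the lower ones Slc25a5 and Slc25a23. The call of Slc25a39 ended with no filter on low counts.

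Slc25a44, which carries branched-chain amino acids, had 11.0, 14.7 and 13.3 CPM in the inputs and 28.3, 36.1 and 41.8 CPM in the pulldowns of the same cultures. Every pulldown lay above every input, at a log2 fold change of 1.39 (SE 0.30, adjusted p = 0.00457). The glutamate carrier Slc25a22 had 161, 164 and 173 CPM in the inputs and 305, 374 and 509 CPM in the pulldowns. Its groups did not overlap either, and the log2 fold change was 1.20 (SE 0.23, adjusted p = 0.00335). The phosphate carrier Slc25a3 had 694, 786 and 677 CPM and 1134, 1089.6 and 1244 CPM, again without overlap, with 0.63 (SE 0.21, adjusted p = 0.0282).

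Slc25a5 went the other way, with 201, 231 and 213 CPM in the inputs and 151, 164 and 131 CPM in the pulldowns. Every pulldown was below every input, and the log2 fold change was -0.58 (SE 0.20, adjusted p = 0.0352). With the trend of all genes over CDS length removed it was -0.29 (adjusted p = 0.295) and did not pass. Slc25a4, which carries the same substrates, had 876, 812 and 879 CPM and 1161, 1048 and 1212 CPM. All its pulldowns were above its inputs, yet at a log2 fold change of 0.36 (SE 0.16, adjusted p = 0.0958) it did not pass the test, although it did with that trend removed, at 0.66 (adjusted p = 0.0256), and with DESeq2. Slc25a23 had 91.1, 127 and 89.4 CPM in the inputs and 62.6, 58.0 and 57.4 CPM in the pulldowns, without overlap and at -0.84 (SE 0.30, adjusted p = 0.0395), a call lost with the transcript of the highest count. The long carrier Slc25a12 stood at 243, 261 and 292 CPM in the inputs and 273, 276 and 322 CPM in the pulldowns, which overlapped, with 0.08 (SE 0.19, adjusted p = 0.801).

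The other groups of the KCl experiment gave fewer calls. In depolarized neurons with TurboID-PSD95, 2 members were higher and 1 was lower. Of all genes 12.6% passed, 8.21% higher and 4.39% lower, and 2.78% and 4.09% of those of 800 to 1200 nt. With Pan-TurboID at rest, 2 members were higher and 1 lower. Of all genes 9.60% passed, 4.55% higher and 5.05% lower, and 2.07% and 3.67% of those of 800 to 1200 nt. With Pan-TurboID after KCl, 2 members were higher and none lower. Of all genes 8.83% passed, 5.19% higher and 3.64% lower, and 1.98% and 3.50% of those of 800 to 1200 nt. The higher members were Slc25a44 and Slc25a22 in each of these, and the lower one was Slc25a5. Slc25a44 had log2 fold changes of 1.61 (SE 0.31, adjusted p = 0.00574) in depolarized TurboID-PSD95, 1.43 (SE 0.30, adjusted p = 0.0188) in resting Pan-TurboID and 0.99 (SE 0.30, adjusted p = 0.0441) in depolarized Pan-TurboID. For Slc25a22 these were 0.75, 0.77 and 1.01, and for Slc25a5 they were -0.61, -0.62 and -0.49, the last of which did not pass. With the length trend removed the calls of Slc25a5 ended, at -0.35 (adjusted p = 0.238) in depolarized TurboID-PSD95 and -0.39 (adjusted p = 0.192) in resting Pan-TurboID. They also ended with no filter on low counts, and the second with RLE scaling and with the transcript of the highest count. Slc25a44 in depolarized Pan-TurboID did not pass with no filter. Summed astrocyte markers were 551 to 627 CPM in the depolarized TurboID-PSD95 inputs and 774 to 919 CPM in the pulldowns, and neuron markers 7501 to 8278 and 8444 to 9235 CPM with Pan-TurboID at rest, without overlap. Their part in the results was not tested.

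Input and pulldown of a culture shared their deviations in the KCl experiment, and with the culture as a block the calls rose to 11 with TurboID-PSD95 at rest, 8 after KCl, 11 with Pan-TurboID at rest and 8 after KCl, while 41.9%, 34.6%, 32.9% and 32.0% of all genes passed. With the block Slc25a4 passed at rest with TurboID-PSD95, at 0.36 (adjusted p = 0.00419), Slc25a3 in the other groups, at 0.33, 0.43 and 0.40, and Slc25a5 with Pan-TurboID after KCl, at -0.50 (adjusted p = 0.00417). Without the libraries of culture number 3 no member passed in any of the 4 groups, and 0, 3, 0 and 0 of all 13213 genes did, although the median log2 fold changes of the members stayed at 0.33, 0.19, 0.22 and 0.25. Without number 2 the member counts were 3, 1, 0 and 0, and without number 1 they were 6, 1, 2 and 1. Here and below, counts with cultures left out that lack the share of all genes show no change particular to the members.

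With DHPG, 23 of 31 members passed, 21 higher and 2 lower, in an experiment in which 79.8% of all genes passed, 40.5% higher and 39.3% lower. Of genes of 800 to 1200 nt, 26.9% were higher and 45.8% lower. The spread between replicates in the fit (common coefficient of variation) was 0.0723 with DHPG, 0.132 in the knockdown and 0.294 in the KCl experiment. The numbers of calls and the sizes of p are therefore not comparable between the experiments. Slc25a3 had 689, 646 and 652 CPM in the inputs and 1570.0, 1515 and 1472 CPM in the pulldowns, more than double in each culture, with a log2 fold change of 1.17 (SE 0.05, adjusted p = 1.36e-12). Slc25a22 rose from 248, 243 and 249 to 562, 550.2 and 629 CPM, with 1.20 (SE 0.06, adjusted p = 4.37e-12). Slc25a44 rose from 31.8, 23.6 and 25.5 to 78.4, 83.1 and 86.8 CPM, with 1.58 (SE 0.11, adjusted p = 1.41e-10). None of these groups overlapped. By p, though not by size, Slc25a17, Slc25a39 and Slc25a11 came next, at 1.02, 0.99 and 0.67.

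Slc25a5 fell from 199.7, 193 and 188 CPM in the DHPG inputs to 124, 137 and 131 CPM in the pulldowns, at -0.60 (SE 0.07, adjusted p = 1.86e-07), and Slc25a23 was the other member that fell, at -0.46 (SE 0.08, adjusted p = 6.42e-05). Slc25a4 had 1269, 1274 and 1280.5 CPM in the inputs and 1289.7, 1262 and 1164 CPM in the pulldowns, with -0.07 (SE 0.05, adjusted p = 0.227). With the trend over CDS length removed it stood at 0.36 and passed (adjusted p = 2.06e-05). Slc25a12 stood at -0.06 and did not pass, but did with the trend removed, at -0.41 (adjusted p = 5.96e-06). By role, 3 of 3 di- and tricarboxylate carriers tested rose, as did 2 of 2 iron carriers, the phosphate carrier and 3 of 4 carriers of other amino acids and glutathione. Of 7 in the adenine nucleotide list, which counts members linked to coenzyme A as well, 4 rose (Slc25a16, Slc25a17, Slc25a25 and Slc25a42) and 2 fell (Slc25a5 and Slc25a23). In the other roles 2 of 3 carriers of carnitine and basic amino acids, 2 of 5 of cofactors and nucleotides, 1 of 2 of aspartate and glutamate, 1 of 2 uncoupling-like proteins, the outer membrane member and 1 orphan rose, against 40.5% of all genes. Summed markers of neurons were 9145 to 9249 CPM in the DHPG inputs and 10109.9 to 10256 CPM in the pulldowns, those of astrocytes 224 to 233 and 287 to 311, and those of the oligodendrocyte lineage 60.6 to 68.6 and 38.5 to 46.1, and their part in the result was not tested.

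After eIF4G2 knockdown, 12 of 33 members were higher and 3 lower in the resting pulldowns and 9 were higher and 3 lower after KCl. At rest 45.5% of all genes passed, 22.1% higher and 23.4% lower, and 10.7% and 25.6% of those of 800 to 1200 nt. After KCl 48.8% passed, 24.0% higher and 24.8% lower, and 10.8% and 27.4% of those of 800 to 1200 nt. Slc25a3 had 619 and 667 CPM in the resting inputs and 1178 and 1062 CPM in the pulldowns, and 775 and 825 CPM and 1273 and 1327 CPM after KCl. Both pairs of groups were apart, with log2 fold changes of 0.79 (SE 0.08, adjusted p = 1.33e-08) and 0.64 (SE 0.08, adjusted p = 3.30e-07). Slc25a46 rose at rest by 1.00 (SE 0.17, adjusted p = 4.19e-05), and Slc25a22 by 0.53 (SE 0.11, adjusted p = 0.000394). Slc25a5 and Slc25a23 fell in both states, Slc25a5 by 0.57 and 0.51 and Slc25a23 by 0.71 and 0.90 on the log2 scale. Slc25a12 was the third member that fell at rest, by 0.29, and Slc25a1 the third after KCl, by 0.42. With the length trend removed Slc25a5 was at -0.24 (adjusted p = 0.126) and -0.10 (adjusted p = 0.560) and Slc25a1 at -0.06 (adjusted p = 0.802), so that these calls ended, and that of Slc25a12 at rest ended with RLE scaling and with DESeq2. Of the 7 pulldown over input comparisons, Slc25a4 passed only in the depolarized knockdown in the fit reported, at 0.29 (SE 0.09, adjusted p = 0.0113). Without the first or second resting knockdown culture the count at rest was 6 or 4 against 15. Neuron markers summed to 7838 to 8032 CPM in the resting inputs and 6919.8 to 7135 CPM in the pulldowns, and to 6003 to 6201 and 5420.4 to 5445 CPM after KCl. Those of the oligodendrocyte lineage summed to 180.0 to 183 and 105 to 135 CPM at rest and 179 to 202 and 90.2 to 118 CPM after KCl, and microglia markers to 6.17 to 6.61 and 12.8 to 14.6 CPM after KCl. None of these pairs overlapped, and their part in the results was not tested.

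**Figure D1:**
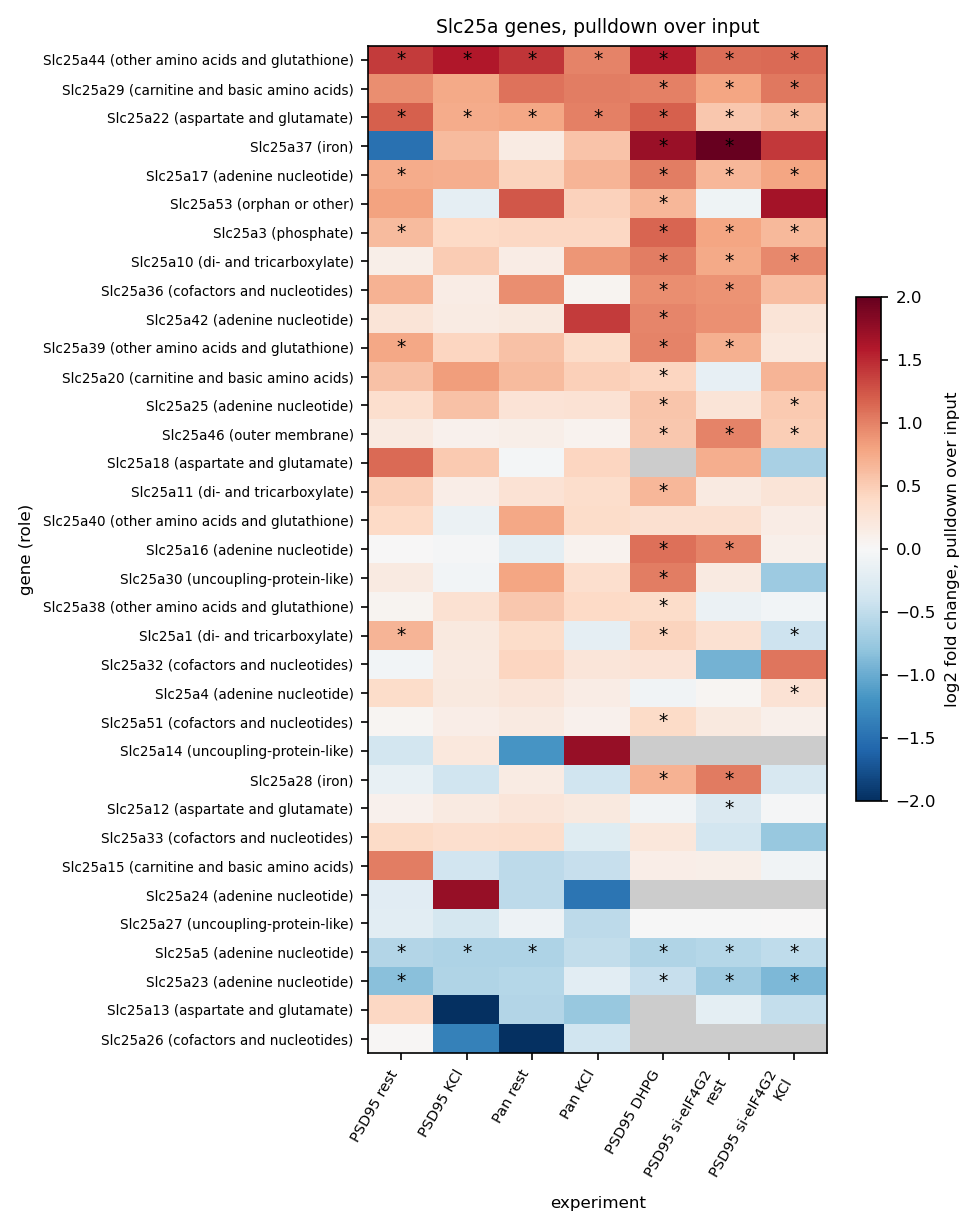
Log2 fold change of pulldown over input for Slc25a genes tested (rows, with their roles, 1 not shown) in the 7 groups of cultures (columns), ordered by the mean over the groups, with colours limited to -2 and 2, grey for not tested and an asterisk for a call at 0.05. Slc25a44 and Slc25a22 were called higher in all 7, and Slc25a5 was below 0 in all 7 and called in 6, of which 1, with DHPG, remained called with the trend over CDS length removed.

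Across the 7 pulldown over input comparisons, whose libraries do not overlap, 31 members were tested in each. Of these, 13 had a log2 fold change above 0 in all 7, where 28.3% of the 11792 genes tested throughout and 16.0% of those of 800 to 1200 nt did. These were Slc25a3, Slc25a10, Slc25a11, Slc25a17, Slc25a22, Slc25a25, Slc25a29, Slc25a36, Slc25a39, Slc25a42, Slc25a44, Slc25a46 and Slc25a51. Slc25a5 and Slc25a23 were below 0 in all 7, as were 30.7% of all genes. Slc25a44 (0.99 to 1.61) and Slc25a22 (0.53 to 1.20) passed the test and were higher in every comparison, against 2.37% of all genes and 0.935% of those of 800 to 1200 nt.

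At rest with TurboID-PSD95 the median log2 fold change was 0.30 for the 36 members and -0.20 for the 2372 genes of 800 to 1200 nt. The corresponding medians were 0.18 and -0.18 after KCl, 0.24 and -0.16 with Pan-TurboID at rest, and 0.26 and -0.15 with Pan-TurboID after KCl. With DHPG they were 0.55 and -0.22, and in the knockdown 0.26 and -0.21 at rest and 0.21 and -0.25 after KCl. Measured against a smoothed (lowess) trend of the fold change over CDS length, the members' median was 0.54 above the trend at rest with TurboID-PSD95, with 30 of 36 members above it (49.9% of all genes), and 0.83 above it with DHPG. The medians above the trend were 0.37, 0.42 and 0.41 in the other groups of the KCl experiment and 0.54 and 0.49 in the knockdown.

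**Figure D2:**
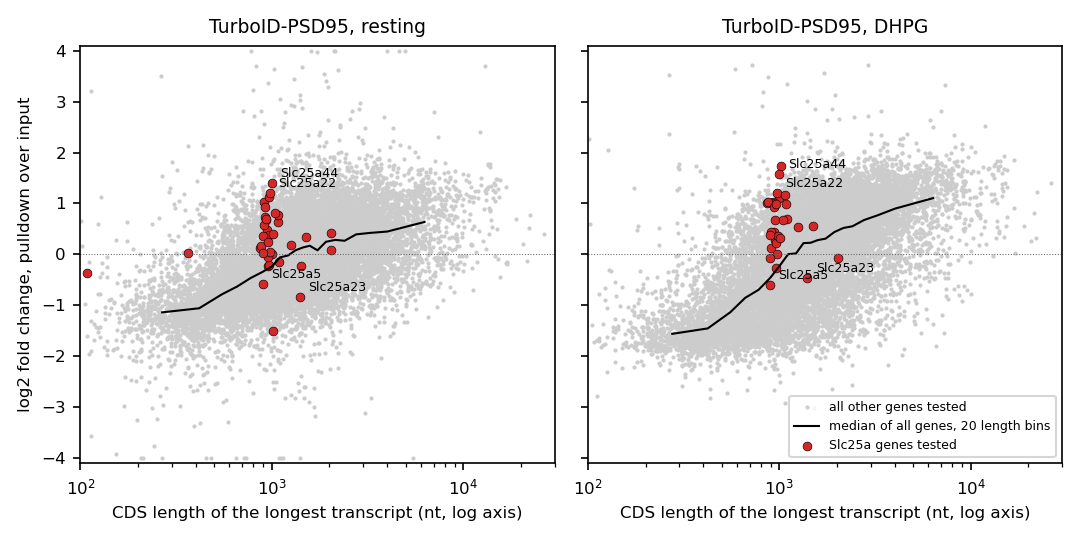
Log2 fold change of pulldown over input (vertical axis, points beyond -4 and 4 drawn at the edge) against CDS length (horizontal log axis, nt) in resting and DHPG-treated neurons with TurboID-PSD95, with grey points for other genes, a black line for the median over 20 length bins and red points for Slc25a genes. At rest 30 of 36 red points lie above a smoothed length trend of all genes, and Slc25a5, Slc25a12, Slc25a23, Slc25a24, Slc25a28 and Slc25a37 lie below it.

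The captured share of a carrier's footprints differed along its CDS. This was seen only after the gene-level values, and the comparison was then made for all genes. For Slc25a3 in resting TurboID-PSD95 cultures, the first of 7 CDS segments had a log2 pulldown over input of -1.67 and the second, the 122-nt exon, -1.28. The middle segments stood at 0.33 and 1.64, and the last of them at 1.91 (5855 input and 1195 pulldown counts in the first, 1385 and 2911 in the last). The ratio was thus below 1 at the start of the CDS and above 1 from the third segment on. The first segment of Slc25a3 ranged over -2.42 to -1.35 and the last over 1.47 to 1.92 across the 7 groups of cultures, which did not overlap.

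Slc25a4, Slc25a5 and Slc25a12 followed the same course. The first of 4 segments of Slc25a4 ranged over -2.11 to -1.37 and the last over 0.98 to 1.98. For Slc25a5 these ranges were -2.46 to -1.45 and 1.20 to 2.01, so that the end of this gene was enriched in the pulldown while its total was below the input. Of the 30-base stretches of its CDS, 86.3% also occur elsewhere in the genome, so its counts are uncertain. Slc25a12, with 18 segments, stood at -1.11 in the third segment and at 1.75 in the last at rest with TurboID-PSD95. Slc25a22 went from -0.59 in its second segment to 1.74 in its last. Slc25a44 was above 0 in each of the 3 segments with enough counts, at 1.09, 1.75 and 1.90.

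**Figure D3:**
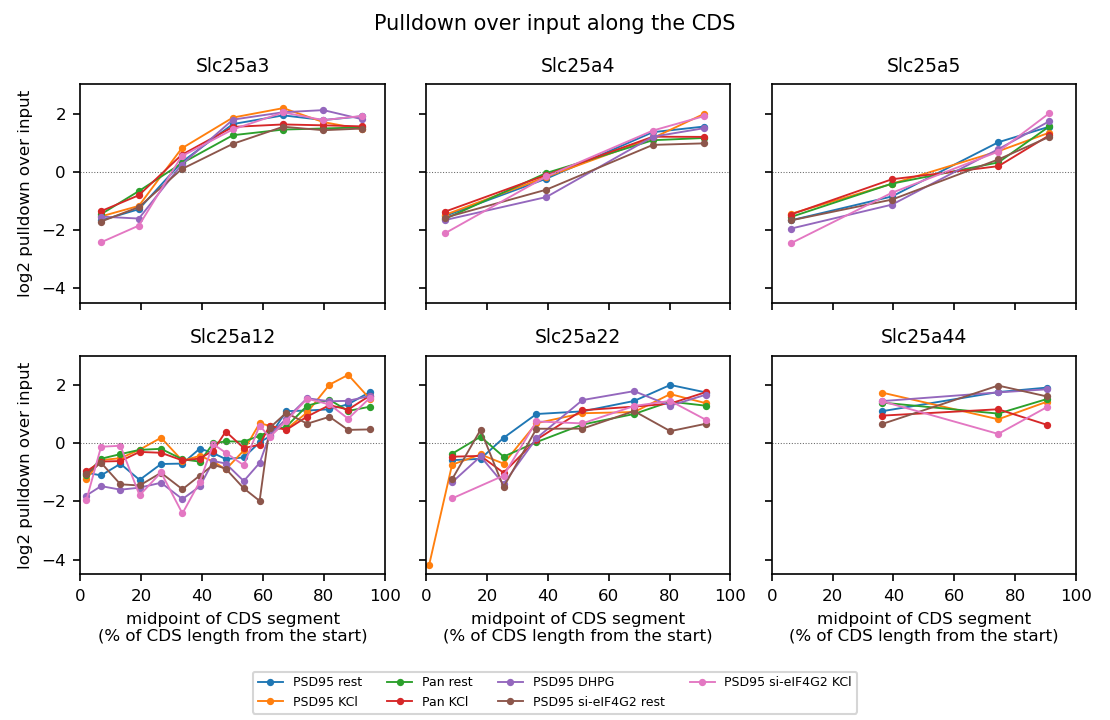
Log2 pulldown over input of each CDS segment (vertical axis) against the position of its midpoint along the CDS (horizontal axis, % of CDS length) for 6 Slc25a genes, with a line for each of the 7 groups of cultures and only segments with at least 50 counts. The lines of Slc25a3, Slc25a4, Slc25a5 and Slc25a12 run from below 0 near the start to above 0 near the end, while Slc25a44 is above 0 throughout.

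The segments of each CDS were then divided into an upstream part (midpoint before the middle of the CDS) and a downstream part. The ratio of downstream to upstream counts was compared between pulldown and input. The course was first seen in these same libraries, so the p-values of the genes above are no independent evidence of it. In Slc25a3 at rest with TurboID-PSD95, the downstream part held 42.2%, 34.1% and 35.8% of the CDS counts in the inputs and 83.0%, 75.9% and 86.9% in the pulldowns, where it makes up 58.4% of the CDS length. The ratio was higher in the pulldown by 2.97 (SE 0.53, adjusted p = 0.00166) on the log2 scale. In Slc25a4 the downstream part, 33.3% of the length, held 33.1%, 27.9% and 26.1% of the input and 53.7%, 57.5% and 65.1% of the pulldown counts, a log2 change of 1.81 (SE 0.40, adjusted p = 0.00330). In Slc25a5 it held 15.5%, 11.7% and 12.3% and 47.3%, 42.1% and 49.8%, a log2 change of 2.51 (SE 0.43, adjusted p = 0.00152). In each of these genes every pulldown lay above every input.

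Of 29 members tested at rest with TurboID-PSD95, 20 had a higher downstream to upstream ratio in the pulldown and none a lower one, against 26.1% of all genes and 29.9% of those of 800 to 1200 nt with a higher one. The median log2 change was 2.27 for the members, 1.18 for genes of that length and 0.95 for all genes. After KCl the count was 19 of 29 (24.9% of all genes), with medians of 1.95, 1.17 and 0.98 in the same order. With Pan-TurboID it was 13 of 29 at rest (10.9%; medians 1.77, 1.02 and 0.81) and 14 of 29 after KCl (17.3%; medians 1.71, 1.08 and 0.88). With DHPG it was 24 of 26 (71.3%; medians 2.17, 1.27 and 1.12). In the knockdown it was 12 of 25 at rest (35.9%; medians 1.52, 0.88 and 0.88) and 16 of 25 after KCl (45.8%; medians 2.34, 1.42 and 1.22). With the culture as a block the KCl experiment gave 21 of 29 members (38.2% of all genes) with TurboID-PSD95 at rest and 20 (38.9%) after KCl, and 18 (30.8%) and 20 (34.5%) with Pan-TurboID.

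In all 7 groups of cultures, 8 of the 23 members tested throughout passed, namely Slc25a1, Slc25a3, Slc25a4, Slc25a5, Slc25a11, Slc25a17, Slc25a22 and Slc25a46, where 6.53% of 9103 genes did, and 19 of 23 had a change above 0 throughout, where 62.5% of genes did. Slc25a44 was an exception, with a median change of 0.04 over the groups, above 0 in 4 of the 7 and past the test in 1. Slc25a28, Slc25a32 and Slc25a33 also had a change below 0 in at least 1 group. Without culture number 3 no member passed in any of the 4 groups, with 0 or 1 of all genes, although the members' medians were 2.12, 1.65, 1.74 and 1.66, and with Pan-TurboID at rest no member passed without number 2 either. Without number 2 the counts were 13 with TurboID-PSD95 at rest (12.4% of all genes) and 9 with Pan-TurboID after KCl (5.59%), against 20 and 14. Without the first or second resting knockdown culture the count at rest was 8 each time, with 16.3% and 16.9% of all genes higher.

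**Figure D4:**
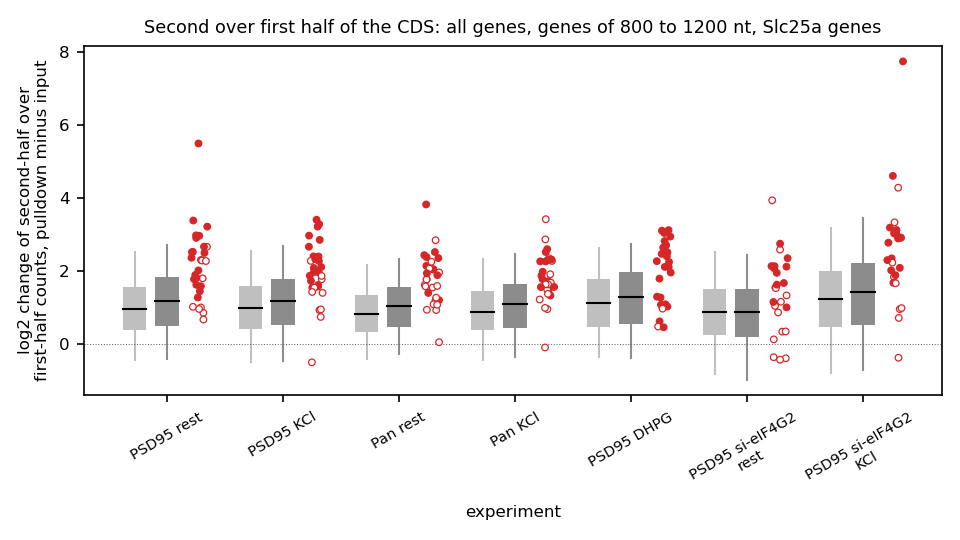
Log2 change, pulldown against input, of the ratio of downstream to upstream CDS counts (vertical axis) in the 7 groups of cultures, with boxes for all genes (light grey) and genes with a CDS of 800 to 1200 nt (dark grey, line at the median, box over the quartiles, whiskers from the 5% to the 95% quantile) and red points for Slc25a genes, filled where called at 0.05. Most red points lie above the median of the dark box in each group, with members' medians of 1.52 to 2.34.

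TurboID-PSD95 was compared with Pan-TurboID through the difference of their pulldown over input values, and no member passed (1 gene of 13019, 0.00768%, did by edgeR's quasi-likelihood test, and none by DESeq2 among the members). At an unadjusted p under 0.05 there were 0 members and 169 genes. Averaged over resting and depolarized cultures, the differences were 0.10 (SE 0.21, adjusted p = 1.00) for Slc25a3, 0.08 (SE 0.16, adjusted p = 1.00) for Slc25a4, -0.04 (SE 0.20, adjusted p = 1.00) for Slc25a5, 0.08 (SE 0.23, adjusted p = 1.00) for Slc25a22 and 0.29 (SE 0.30, adjusted p = 1.00) for Slc25a44. By state, Slc25a22 had 1.20 with TurboID-PSD95 and 0.77 with Pan-TurboID at rest but 0.75 and 1.01 after KCl, and Slc25a44 1.39 and 1.43 at rest but 1.61 and 0.99 after KCl, and the ligases were not tested within a state. The downstream to upstream ratio likewise gave 0 members and 0 genes (0.00%), with 0 members and 163 genes at an unadjusted p under 0.05, and a median difference of 0.40 for the members, 0.14 for genes of 800 to 1200 nt and 0.13 for all genes.

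Depolarization was first read in the inputs of both ligases, 6 resting and 6 depolarized. By the labels, only the depolarized cultures were silenced before KCl and left for a time after it, with or without knockdown. Silencing, KCl and the time afterwards therefore cannot be told apart in any comparison of the states. A change with KCl, here and below, is a change with the whole treatment. Of 36 members, 5 rose and 3 fell, where 15.4% of all genes passed, 6.32% rising and 9.03% falling. Slc25a36, a pyrimidine nucleotide carrier, had 9.76, 6.34 and 6.63 CPM (TurboID-PSD95) and 8.59, 5.24 and 12.04 CPM (Pan-TurboID) at rest. After KCl it had 27.4, 24.8 and 24.6 CPM and 25.1, 18.6 and 20.7 CPM. Every depolarized input was above every resting one, and the log2 fold change was 1.49 (SE 0.23, adjusted p = 6.28e-05). Of the 30-base stretches of its CDS, 80.6% also occur elsewhere in the genome, so the counts of Slc25a36 are uncertain here and below. Slc25a28, an iron importer, had 12.02 to 17.2 CPM at rest and 21.7 to 31.7 CPM after KCl, without overlap, at 0.80 (SE 0.18, adjusted p = 0.00271). Slc25a25, a further ATP-Mg and phosphate carrier, rose by 0.58 (SE 0.15, adjusted p = 0.0103), and Slc25a38, which carries glycine for heme synthesis, by 0.54 (SE 0.17, adjusted p = 0.0283). The call of Slc25a25 ended with the transcript of the highest count, and that of Slc25a38 with no filter or with the length trend removed.

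The members that fell were Slc25a39, Slc25a16 and Slc25a42. Slc25a39, which carries glutathione, had 16.7 to 27.3 CPM at rest and 11.3 to 14.6 CPM after KCl, at -0.75 (SE 0.19, adjusted p = 0.00742). Slc25a16, linked to coenzyme A, had 14.6 to 27.9 CPM and 10.4 to 13.8 CPM, at -0.82 (SE 0.22, adjusted p = 0.0106). The coenzyme A carrier Slc25a42 had 6.16 to 12.5 CPM and 0 to 6.53 CPM, at -1.28 (SE 0.36, adjusted p = 0.0162). Slc25a39 and Slc25a16 did not overlap between the states, while Slc25a42 did and had no count in 1 depolarized Pan-TurboID input. The abundant carriers did not pass. Slc25a3 stood at 677 to 895 CPM at rest and 868 to 1165 CPM after KCl, with 0.39 (SE 0.15, adjusted p = 0.0674), and passed with DESeq2. The values for Slc25a4, Slc25a5, Slc25a12 and Slc25a22 were 0.08, 0.10, 0.25 and -0.05, of which Slc25a12 passed with the length trend removed, at 0.38 (adjusted p = 0.0386). Without culture number 3, 1 member passed, without number 2, 4 did, and without number 1, 6 did.

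**Figure D5:**
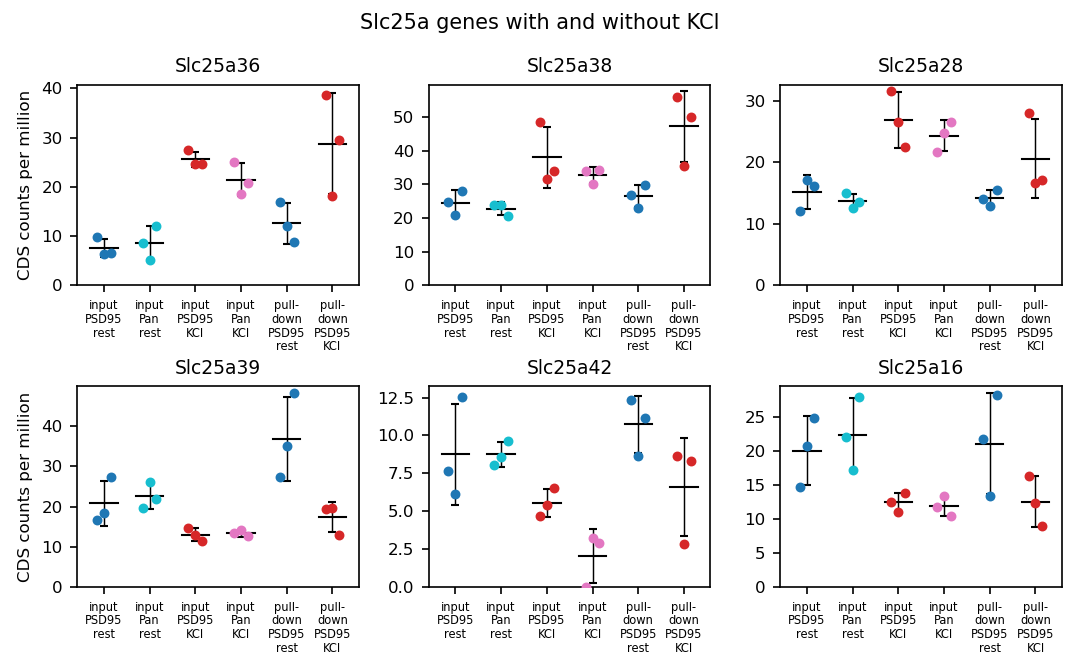
CPM (CDS counts scaled to library size, vertical axis) of 6 Slc25a genes in resting and KCl-depolarized inputs with both ligases and in TurboID-PSD95 pulldowns, with a point for each culture and bars for the mean and SD (n = 3). Slc25a36 and Slc25a28 inputs were higher after KCl in every culture, and Slc25a39 and Slc25a16 inputs lower.

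In the TurboID-PSD95 pulldowns, 4 members rose and 1 fell with KCl (6.60% of all genes passed, 3.32% rising and 3.28% falling). Slc25a36 rose from 17.0, 12.03 and 8.75 to 38.7, 18.1 and 29.6 CPM, at 1.14 (SE 0.33, adjusted p = 0.0351). Slc25a39 fell from 27.3, 35.0 and 48.1 to 19.3, 19.7 and 13.0 CPM, at -1.06 (SE 0.27, adjusted p = 0.0165). None of these groups overlapped. Slc25a38 and the dicarboxylate carrier Slc25a10 rose by 0.84 and 1.06, calls that both ended with no filter or with the length trend removed. Neuron markers summed to 7304 to 8105 CPM in these pulldowns at rest and 5573 to 6921 CPM after KCl, without overlap, and their part in the result was not tested. In the Pan-TurboID pulldowns, Slc25a25 rose by 0.82 (SE 0.21, adjusted p = 0.0234) and Slc25a39 fell by 0.99 (SE 0.26, adjusted p = 0.0234) (5.03% of all genes passed, 1.87% rising and 3.16% falling). Without culture number 3 or number 2 no member passed in either set of pulldowns, and without number 1, 3 and 1 did.

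Whether KCl changed the capture itself was tested as the difference of pulldown over input between depolarized and resting TurboID-PSD95 cultures. No member and no gene passed (0.00%) by edgeR's quasi-likelihood test, nor any member by DESeq2, and at an unadjusted p under 0.05 there were 0 members and 236 genes (1.81%). Slc25a36 and Slc25a39 had differences of -0.55 (SE 0.46, adjusted p = 1.00) and -0.34 (SE 0.38, adjusted p = 1.00), and Slc25a3, Slc25a4 and Slc25a5 of -0.24, -0.17 and -0.03. Footprints of ribosomes on the first codons of the CDS fall in the 5′ UTR counts, as set out above. The 5′ UTR counts had a median log2 change with KCl of 0.32 for 32 members, 24 of them above 0, and 0.17 for all genes in the inputs, and of 0.82, with 29 above 0, and 0.65 in the TurboID-PSD95 pulldowns. For the change of capture the medians were 0.48, with 24 above 0, and 0.35. The members gave no call for KCl in the inputs (0.442% of all genes passed), in the TurboID-PSD95 pulldowns (0.275%) or for the change of capture (0.00%), and all genes that passed, 45 in the inputs and 28 in the pulldowns, were higher. At an unadjusted p under 0.05 there were 2, 4 and 0 members, and with the replicate number as a block 1 member, Slc25a36, passed in the pulldowns. DESeq2 was not run on these counts.

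The distribution along the CDS was also compared between resting and depolarized inputs. The median log2 change of the downstream to upstream ratio in the inputs was -0.72 for the 29 members tested, -0.51 for genes of 800 to 1200 nt and -0.32 for all genes, and Slc25a39 was the only member that passed, at -1.59 (SE 0.40, adjusted p = 0.0222) (3.47% of all genes passed). With the CDS divided into 3 parts and the last set against the first, or without culture number 2 or 3, no member passed. Without number 1, 3 did (5.6% of all genes). The pulldowns gave 0 members with TurboID-PSD95 (0.208% of genes) and 0 with Pan-TurboID (0.170%), with 4 and 1 members at an unadjusted p under 0.05 by edgeR's quasi-likelihood test, the one tool used for this ratio. Without number 1, 2 members passed with TurboID-PSD95 (1.48% of genes). In the knockdown inputs the ratio fell in 4 of 25 members (6.05% of genes passed), namely Slc25a1 at -1.35 (SE 0.29, adjusted p = 0.00476), Slc25a3 at -1.17 (SE 0.12, adjusted p = 8.22e-07), Slc25a4 at -0.69 (SE 0.13, adjusted p = 0.000956) and Slc25a46 at -1.44 (SE 0.39, adjusted p = 0.0237). The downstream part of Slc25a3 held 60.2% and 60.4% of its counts in the resting knockdown inputs and 39.7% and 40.7% in the depolarized ones. Leaving out a culture of the knockdown gave 1 to 3 members (1.61% to 3.33% of genes), with 1 without the first resting culture and 2 without the second resting or first depolarized one. In the knockdown pulldowns the ratio rose in Slc25a36 alone, at 3.38 (SE 0.70, adjusted p = 0.00393) (4.55% of genes), and it did not pass without the first resting culture. With 3 parts it was 2.78 and did not pass either (adjusted p = 0.0510), while Slc25a46 passed and was lower.

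In the knockdown, Slc25a3 rose and Slc25a22 fell with KCl in the inputs (19.3% of all genes passed, 8.98% rising and 10.3% falling). Slc25a3 went from 619 and 667 to 775 and 825 CPM, at 0.33 (SE 0.08, adjusted p = 0.00372), and Slc25a22 from 205 and 204 to 140.0 and 165 CPM, at -0.41 (SE 0.12, adjusted p = 0.0134), without overlap. In the pulldowns 2 members rose and 4 fell (22.2% of all genes passed, 10.2% rising). Slc25a1 went from 121 and 112 to 73.8 and 63.1 CPM, at -0.79 (SE 0.16, adjusted p = 0.000512), and Slc25a16 from 27.0 and 21.1 to 8.52 and 10.3 CPM, at -1.39 (SE 0.37, adjusted p = 0.00764). Slc25a42 and Slc25a46 fell by 2.11 and 0.52, and Slc25a25 and Slc25a12 rose by 0.79 and 0.33. The call of Slc25a46 ended with RLE scaling, DESeq2 or the length trend removed, and that of Slc25a12 with no filter. Neuron markers were lower after KCl, at 7838 to 8032 against 6003 to 6201 CPM in inputs and 6919.8 to 7135 against 5420.4 to 5445 CPM in pulldowns. Astrocyte markers were higher, at 563 to 576 against 682 to 715 CPM and 518 to 671 against 703 to 959 CPM, and microglia markers in pulldowns were at 5.501 to 6.17 against 12.8 to 14.6 CPM. None of these ranges overlapped, and their part in the results was not tested. The KCl effect was not shown to differ from that without knockdown for any member, in inputs (1 gene of 13197, 0.00758%) or in pulldowns (0.447%). In the inputs, 0 members passed without the first resting culture, 1 without the second, 3 without the first depolarized culture and 5 without the second. In the pulldowns, 3 and 2 passed without the first and second resting culture, and 3 without the first depolarized one.

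The comparisons of knockdown and DHPG with untreated neurons all use the resting or depolarized TurboID-PSD95 libraries of the KCl experiment as controls, some of them shared. Each of these fits gives 1 estimate of spread to experiments whose spreads differed, so the p-values depend on that pooling. In inputs, knockdown gave 1 call among 36 members, Slc25a42, at -1.19 (SE 0.40, adjusted p = 0.0459) (15.9% of all genes passed). It had 4.25 and 5.78 CPM at rest and 2.20 and 1.23 CPM after KCl with knockdown, against 7.63, 6.16 and 12.5 CPM and 4.71, 5.39 and 6.53 CPM without. The call was lost without any of the 3 culture numbers, with no filter and with the length trend removed. In pulldowns 2 members were higher and 5 lower with knockdown (29.1% of all genes passed, 17.1% lower), with 2, 1 and 3 calls left without numbers 1, 2 and 3. These fits take both states together. The higher ones were Slc25a13 and Slc25a37, at 2.10 and 2.10, both on few counts. Slc25a13 had 4.35 and 4.41 CPM in the resting pulldowns with knockdown and 5.85, 5.28 and 0 CPM without, which overlapped, and 6.09 and 2.96 CPM and 0, 0.130 and 0.592 CPM after KCl, the latter from 0, 1 and 2 counts. The lower ones were Slc25a12 at -0.66 (SE 0.15, adjusted p = 0.00174), the pyrimidine nucleotide carrier Slc25a33 at -1.26 (SE 0.34, adjusted p = 0.00820), and Slc25a38, Slc25a23 and Slc25a11 at -0.57, -0.44 and -0.44. The capture itself was not shown to differ with knockdown for any member, at rest (1.03% of genes passed) or after KCl (0.0606%). The calls of Slc25a38, Slc25a23 and Slc25a11 ended with RLE scaling and with no filter. In inputs, markers of the oligodendrocyte lineage summed to 180.0 to 183 CPM with knockdown and 235 to 518 CPM without at rest, and to 179 to 202 and 156 to 237 CPM after KCl, where they overlapped. Astrocyte markers overlapped at rest and summed to 682 to 715 CPM with and 551 to 627 CPM without knockdown after KCl. In pulldowns, neuron markers summed to 6919.8 to 7135 against 7304 to 8105 CPM at rest and 5420.4 to 5445 against 5573 to 6921 CPM after KCl. Microglia markers were higher with knockdown in each state and fraction without overlap, at 12.8 to 14.6 against 0 to 2.66 CPM in the depolarized pulldowns. Their part in these results was not tested.

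The DHPG inputs differed from the resting inputs in 9 of 36 members, 7 higher and 2 lower (32.8% of all genes passed, 16.3% higher and 16.5% lower). Slc25a4 had 1269, 1274 and 1280.5 CPM with DHPG against 876, 812 and 879 CPM at rest, without overlap and at 0.54 (SE 0.09, adjusted p = 0.000187). Slc25a44 and Slc25a1 were higher by 1.04 and 0.65, and Slc25a20, the carnitine-acylcarnitine carrier, and Slc25a37, an iron importer, were lower by 0.71 and 1.42, calls that both ended with no filter. The inputs also differed in markers of cell types. Those of astrocytes (7 genes) summed to 224 to 233 CPM with DHPG and 503 to 945 CPM at rest, those of the oligodendrocyte lineage (8 genes) to 60.6 to 68.6 and 235 to 518 CPM, and those of neurons (9 genes) to 9145 to 9249 and 7288 to 8117 CPM. None of these ranges overlapped, and S100b (astrocytes) in the DHPG inputs and Mog (oligodendrocytes) in both groups were at 0. The part of these markers in the result was not tested. In the pulldowns 12 members were higher and 4 lower (47.7% of all genes passed, 21.7% higher and 26.0% lower), and those with the smallest p were Slc25a44 at 1.19 (SE 0.17, adjusted p = 2.69e-05) and Slc25a51, an NAD carrier, at 0.86 (SE 0.17, adjusted p = 0.000702), followed by Slc25a36 at 1.16. The size of the change gives another order. The marker ranges of the pulldowns were apart as well, at 287 to 311 against 627 to 1344 CPM for astrocytes, 38.5 to 46.1 against 123 to 387 CPM for the oligodendrocyte lineage and 10109.9 to 10256 against 7304 to 8105 CPM for neurons. Without culture number 1 or 2 the counts were 5 and 4 in inputs and 7 and 6 in pulldowns.

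Genes that work with the carriers were counted from lists by function. Of 16 genes for the import of carriers (the outer membrane translocase, the small Tim chaperones and the carrier translocase), all were tested, and 7 were lower and none higher in the resting TurboID-PSD95 pulldown (13.5% of all genes were lower), with a median log2 fold change of -0.94. These genes are short, with a median CDS of 298.5 nt, and their median lay 0.12 from the trend of all genes over CDS length, with 7 of 16 below it. Timm8b was at -1.59 and Timm22, the channel of the carrier translocase, at -1.16, while Tomm40, the channel of the outer membrane translocase, stood at 0.21 and did not pass. In depolarized TurboID-PSD95 3 were lower (4.39% of all genes), and with Pan-TurboID 7 at rest (5.05%) and 0 after KCl (3.64%), with none higher. With KCl, outside the knockdown, 4 rose in inputs, 3 in TurboID-PSD95 and 2 in Pan-TurboID pulldowns, and none fell. Of all genes 6.32%, 3.32% and 1.87% rose there. With DHPG 15 were lower and 1, Tomm40, was higher (39.3% of all genes were lower), at a median of -1.48, or -0.13 from the length trend. In the knockdown 11 were lower and 1 higher at rest (23.4% of all genes lower) and 12 lower after KCl (24.8%), with medians of 0.05 and 0.08 from the trend. Of 15 other genes of mitochondrial transport, all tested, 2 were higher (Vdac1 and Vdac2, channels of the outer membrane) and 2 lower (Mpc1, of the pyruvate carrier, and Smdt1, of the calcium uniporter) at rest with TurboID-PSD95, shares near those of all genes (11.5% higher and 13.5% lower). Mtch1 and Mtch2, carrier-like proteins of the outer membrane, were the 2 tested of 5 carriers with another symbol and did not pass there.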

How the data were processed

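Footprints of 38 libraries in 14 groups were analysed. According to the study's methods, the authors trimmed adapters and molecular identifiers, aligned reads to mm10 with Rsubread and counted them with plastid. Per the file headers, reads were counted at their 5′ ends with an offset of 0, so the deposited counts are whole numbers of footprint ends per exon segment. Handling of strand and of reads with several matches is not given in the sources used here. A footprint in exons shared by transcripts is counted in each, so 1 transcript per gene was used, the longest, with symbols from GENCODE M21 (66664 of 67238 coding transcripts matched).

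From these counts, edgeR 4.0.16 in R 4.3.3 was run with TMM scaling, filterByExpr and a robust quasi-likelihood fit for each experiment (13019, 12273 and 12239 genes), at a Benjamini-Hochberg FDR of 0.05. SE is the log2 fold change over the square root of F. The labels' replicate numbers link the input and pulldown of a culture, whose deviations from the group means correlated at 0.152 to 0.501 in all 12 pairs of the KCl experiment, but not with DHPG (-0.0924 to 0.0400) or knockdown (0.0120 at rest and 0.000260 after KCl). The family, lists and tests were chosen with earlier results of these data known. In each comparison at most 6 members in each direction were named, by smallest p, and Slc25a3, Slc25a4, Slc25a5, Slc25a12 and Slc25a22 in addition, while 1 member is counted but not reported here by name; members with a value in all groups on 1 side are listed beyond that rule. Alternatives were likelihood ratio tests, RLE scaling, no filter, the transcript with the highest count, removal of the trend over CDS length, DESeq2 1.42.0, blocks by culture or number, both inputs pooled, and leaving out cultures.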

Additional observations from a re-analysis of the deposited data

Results flagged for a closer look

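The capture of 3 members was called different between DHPG-treated and resting neurons with TurboID-PSD95. The test was of the difference of pulldown over input in edgeR's quasi-likelihood fit over both experiments. It called 3 of 36 members, a share near that of all genes (876 of 12803, 6.84%). The fit gives both experiments 1 spread (common coefficient of variation 0.171), against 0.0723 with DHPG and 0.294 in the KCl experiment alone. The SEs of Slc25a3 and Slc25a4 below are smaller than those of their resting comparisons, so the resting spread may be understated. The difference was 0.49 (SE 0.13, adjusted p = 0.0280) for Slc25a3, the phosphate carrier, which was higher in the pulldown in both states. It was -0.48 (SE 0.12, adjusted p = 0.0268) for the ADP/ATP carrier Slc25a4, whose pulldowns were above the inputs in 3 of 3 resting cultures and in 1 of 3 cultures with DHPG. With the trend over CDS length removed, in separate fits, Slc25a4 was above 0 in both, at 0.66 at rest and 0.36 with DHPG. The difference was 3.29 (SE 0.77, adjusted p = 0.0189) for the iron importer Slc25a37, which had 4.05, 3.44 and 1.97 CPM in resting inputs, 0.798, 1.06 and 1.94 CPM in resting pulldowns, 1.86, 0.476 and 1.32 CPM in DHPG inputs and 5.31, 3.64 and 4.05 CPM in DHPG pulldowns. Its resting pulldowns held only 6, 5 and 4 counts. No alternative setting was run for these differences, and no culture was left out. DHPG and resting cultures come from different experiments and, by the study's methods, differ in the length of the biotin pulse, so treatment and experiment cannot be told apart.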

How the results depend on the processing

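The shares of all genes in the settings below are not given beside the counts, so these show no change particular to the members. Counts of members past the FDR, with edgeR's quasi-likelihood fit as described, changed by more than 1.5 times as follows. With DESeq2 they were 5 for depolarized TurboID-PSD95, 5 for resting and 6 for depolarized Pan-TurboID pulldown over input, and 3 for knockdown against no knockdown in inputs. With the culture as a block, those of depolarized TurboID-PSD95, resting Pan-TurboID and depolarized Pan-TurboID were 8, 11 and 8, and with the replicate number as a block 1 member passed for KCl on 5′ UTR counts in TurboID-PSD95 pulldowns. The block by culture or number moved no other count by over 1.5 times. By likelihood ratio the counts were 5 for resting and 4 for depolarized Pan-TurboID, 4 for KCl in knockdown inputs and 2 for knockdown in inputs. With no filter they were 1 for depolarized Pan-TurboID, 3 for KCl in TurboID-PSD95 pulldowns, 0 for knockdown in inputs and 4 in pulldowns, which RLE scaling gave as 4 too. With the length trend removed they were 4 for KCl in knockdown inputs and 3 for knockdown in inputs. With 3 CDS parts, the last set against the first, the ratio gave 0 for KCl in inputs.

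Leaving out cultures, pulldown over input gave 0 to 6 (resting TurboID-PSD95), 0 to 1 (depolarized), 0 to 2 (resting Pan-TurboID), 0 to 1 (depolarized), 19 to 23 (DHPG), 4 to 15 (resting knockdown) and 8 to 10 (depolarized knockdown). KCl gave 1 to 6 (inputs), 0 to 3 and 0 to 1 (TurboID-PSD95 and Pan-TurboID pulldowns), 0 to 5 and 2 to 7 (knockdown inputs and pulldowns). DHPG against rest gave 4 to 7 (inputs) and 6 to 18 (pulldowns), and knockdown against none 0 to 0 and 1 to 3. The downstream to upstream ratio gave 0 to 20, 0 to 17, 0 to 16 and 0 to 12 (KCl experiment, in the order above), 20 to 22 (DHPG), 8 to 13 and 14 to 15 (knockdown), and for KCl 0 to 3 (inputs), 0 to 2 (TurboID-PSD95 pulldowns), 1 to 3 and 0 to 1 (knockdown inputs and pulldowns). The change of capture, the difference between ligases and the 5′ UTR counts gave 0 to 0. No value that passed the test changed sign in the settings run. The differences between experiments were not among the values run in other settings. Values that did not pass were followed only for Slc25a3, Slc25a4, Slc25a5, Slc25a12, Slc25a22 and the member not reported by name. Of 881 such values under alternatives, 52 had the other sign, 1 of them past the FDR (Slc25a4 with DHPG at 0.36 with the length trend removed). The tally of single gene-level values covers the calls of the fit reported and these followed members, so calls gained by other members are not counted. In it, 1332 values kept their side of the FDR, 58 lost and 24 gained a call, with 519, 174 and 5 when cultures were left out. Of the calls in the downstream to upstream ratio, 226 were kept and 14 lost, and 268 and 137 when cultures were left out. The cause of these changes was not tested. Low members such as Slc25a37 rest on few counts.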

Other observations

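Upstream start codons were looked for because the study concerns them. An ATG (letters ATG, strand of the gene) was present in the annotated 5′ UTR of 28 of the 47 Slc25a genes (59.6%) and of 55.2% of 20896 genes, and the median 5′ UTR was 180 nt for the family and 175 nt for all genes. The 3 most translated members had 5′ UTR counts of 197 to 447 CPM (Slc25a4), 83.6 to 128 CPM (Slc25a3) and 16.0 to 42.2 CPM (Slc25a5) in resting inputs. Their 5′ UTRs hold 4, 1 and 0 ATGs. Footprints were set at their 5′ ends, so these counts include ribosomes on the first codons of the CDS and are no measure of upstream translation alone.

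The longest transcripts of Slc25a14 and Slc25a26, which were the ones counted, have a CDS of 108 nt and 366 nt, shorter than a whole carrier. Those of Slc25a45 and Slc25a47 have a CDS of 639 nt and 660 nt, where the longest CDS of the gene has 867 nt and 933 nt. The values of these genes therefore concern part of the gene's coding sequence.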
